A study of Mus musculus with 2 samples.

Results

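The 9 genes described here are members of the interleukin-1 (IL-1) family of cytokines and of its receptor family: the ligands Il1a, Il1b, Il18 and Il33, the receptor antagonist Il1rn, the decoy receptor Il1r2, the signalling receptor Il1r1, the IL-33 receptor Il1rl1 (also called ST2) and the co-receptor Il1rap. They were chosen by name, as the 9 symbols of this list among the 33696 genes of each expression matrix, and each symbol occurred in 1 row. Cells came from hindlimb digits 2 and 4 of neonatal ICR mice, an outbred strain, that were amputated through the middle phalanx (P2), a level that heals by scar without regrowing bone, on postnatal day 3. On postnatal day 7 an agarose bead was placed in each closed wound, carrying Fibroblast Growth Factor 8 (FGF8, 500 ng/µl) in 1 group and bovine serum albumin (BSA, 0.1%) in the control group, and cells were taken 24 h later, on postnatal day 8. Each group was a pool of 20 digits from 5 mice of both sexes, stripped of epithelium, dissociated for 4 h and sequenced as 1 single-cell RNA library. With 1 library per condition no test between conditions was possible, and the bead, the animals, the dissection and the library cannot be told apart. Ratios below are given with 95% intervals that cover counting error only.

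IL-1 family ligands are alarm signals of damaged or inflamed tissue. IL-1α and IL-1β bind IL1R1, which then recruits IL1RAP and signals through MYD88 and IRAK kinases to NF-κB, while IL1RN occupies the receptor without signalling and IL1R2 binds ligand without a signalling tail. IL-33 is stored in the nuclei of stromal and barrier cells and acts on IL1RL1, again with IL1RAP, and mast cells and type-2 innate lymphoid cells are its classical targets. IL-18 uses a receptor pair of its own, IL18R1 and IL18RAP.

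In fibroblast-like cells, Il1rl1 stood at 188 CPM after the FGF8 bead and 25.6 CPM after the BSA bead, a 7.36-fold ratio. CPM is a gene's UMI count (unique molecular identifiers, 1 per captured transcript) divided by all UMIs of that cell type in that library, scaled to a common total. Below, where a pair of values is given the FGF8 library comes first. Its ligand Il33 was also found mainly in fibroblast-like cells, at 44.8 and 43.8 CPM, but was highest in another subcluster of them than Il1rl1. Il1r1 was 1.79-fold higher in the FGF8 library, and the shared co-receptor Il1rap was at 20.3 and 20.5 CPM. Il1b was held mainly by neutrophil-like cells in both libraries, at 7603 and 8283 CPM.

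The FGF8 library held 7249 barcodes and 124889213 UMIs and the BSA library 3703 barcodes and 67739460 UMIs, of which 6715 and 3252 cells passed the filters, with median depths of 12251 and 15377 UMIs. The libraries shared 6 barcodes. Among cells with a sex call from Xist and Y-linked genes, 24.6% after FGF8 and 79.3% after BSA were called female, so sex moves with the bead. Cells fell into 19 clusters or groups of clusters, 13 of them named from fixed markers as "X-like" and 6 left unnamed and called by their leading genes. Ratios of the 9 genes within each sex were computed in 8 of these types, and some are given below. They were fibroblast-, chondrocyte-, pericyte-, Schwann-, macrophage-, neutrophil- and mast-like cells and the cluster led by Ccl9, Slc37a2 and Havcr2. Ratios of the other types, among them monocyte or dendritic-like, keratinocyte-like and T or innate lymphoid-like cells, were not checked within each sex. Nor were ratios in the fibroblast-like subclusters, or ratios of single genes outside the 9, so sex may contribute to those values. The clustering did not use the 9 genes. Fibroblast-like cells were the largest type (3320 with the FGF8 bead and 1714 with the BSA bead) and had UMIs of all 6 fibroblast markers in both libraries. Their summed fibroblast markers, mostly Col1a1 and Col3a1, were at 16810 CPM after FGF8 and 31331 CPM after BSA. The neutrophil-like cells had almost no UMI of Ly6g. Of the pericyte-like cells, 419 lay in a sub-cluster led by Myh11 that scored slightly higher for smooth muscle than for pericyte. Its mean log2 folds were 5.32 and 5.01, and it earned no name of its own. The other 51 cells were named pericyte-like, so the type may hold smooth muscle cells as well.

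In the GRCm39 annotation, 3 of the receptor genes lie on the plus strand of chromosome 1, in a row with other receptors of the family: Il1r2 at chr1:40113239-40164391, Il1r1 at chr1:40264174-40356417 and Il1rl1 at chr1:40468730-40504575. Il1rl2 lies between Il1r1 and Il1rl1, and Il18r1 and Il18rap follow Il1rl1, with a gap of 136 bases between Il1rl1 and Il18r1. The gene Il1rap is at chr16:26400350-26548880. Of the ligand genes, Il1a is at chr2:129140291-129152098 and Il1b at chr2:129206490-129213059, both on the minus strand, Il18 at chr9:50466081-50493633 and Il33 at chr19:29902483-29938933. The antagonist gene Il1rn is at chr2:24226865-24241506.

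Il1rl1 is known to be transcribed from a distal promoter, used in mast cells and other blood cells, and from a proximal promoter, used in fibroblasts. Both are shown because Il1rl1 was found in fibroblast-like and in mast-like cells. The sequences are from RefSeq (GRCm38.p6 table) and each matched GRCm39 chromosome 1 at 1 place, on the plus strand, at chr1:40468480-40468719 (distal) and chr1:40478539-40478778 (proximal), 10059 bases apart. Capitals mark the GATA motif, AGATAA or its reverse complement TTATCT.
Il1rl1 distal promoter: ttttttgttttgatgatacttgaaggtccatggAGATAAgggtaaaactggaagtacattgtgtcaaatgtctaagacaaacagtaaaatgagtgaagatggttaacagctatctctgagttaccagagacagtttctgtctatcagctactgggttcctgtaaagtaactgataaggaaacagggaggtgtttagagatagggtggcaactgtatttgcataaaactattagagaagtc
Il1rl1 proximal promoter: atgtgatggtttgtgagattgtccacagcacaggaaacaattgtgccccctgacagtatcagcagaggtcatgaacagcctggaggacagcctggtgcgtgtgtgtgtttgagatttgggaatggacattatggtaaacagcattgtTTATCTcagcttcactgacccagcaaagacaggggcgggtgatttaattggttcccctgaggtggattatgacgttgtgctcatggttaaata
The printed letters are the first 240 of the 250 bases before each start site, so they end short of it. The motif began 217 bases before the start site of the distal promoter and 103 bases before that of the proximal promoter. Of 32851 RefSeq promoters searched over the 250 bases before the start, on both strands, 9.99% held it, and of the 14 promoters of the 9 genes only these 2 of Il1rl1 did. The AP-1 motif TGANTCA was in 2 member promoters (Il1rn and Il1a) against 6.75% of all promoters. The ETS motif CCGGAA was in 0 of the 14 against 12.0%. The motifs were chosen after the expression values were known, and a match is a description of letters, not of binding. The 3′ counts do not tell which promoter was used, nor the membrane form of Il1rl1 or Il1rap from the soluble form.

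**Figure D1:**
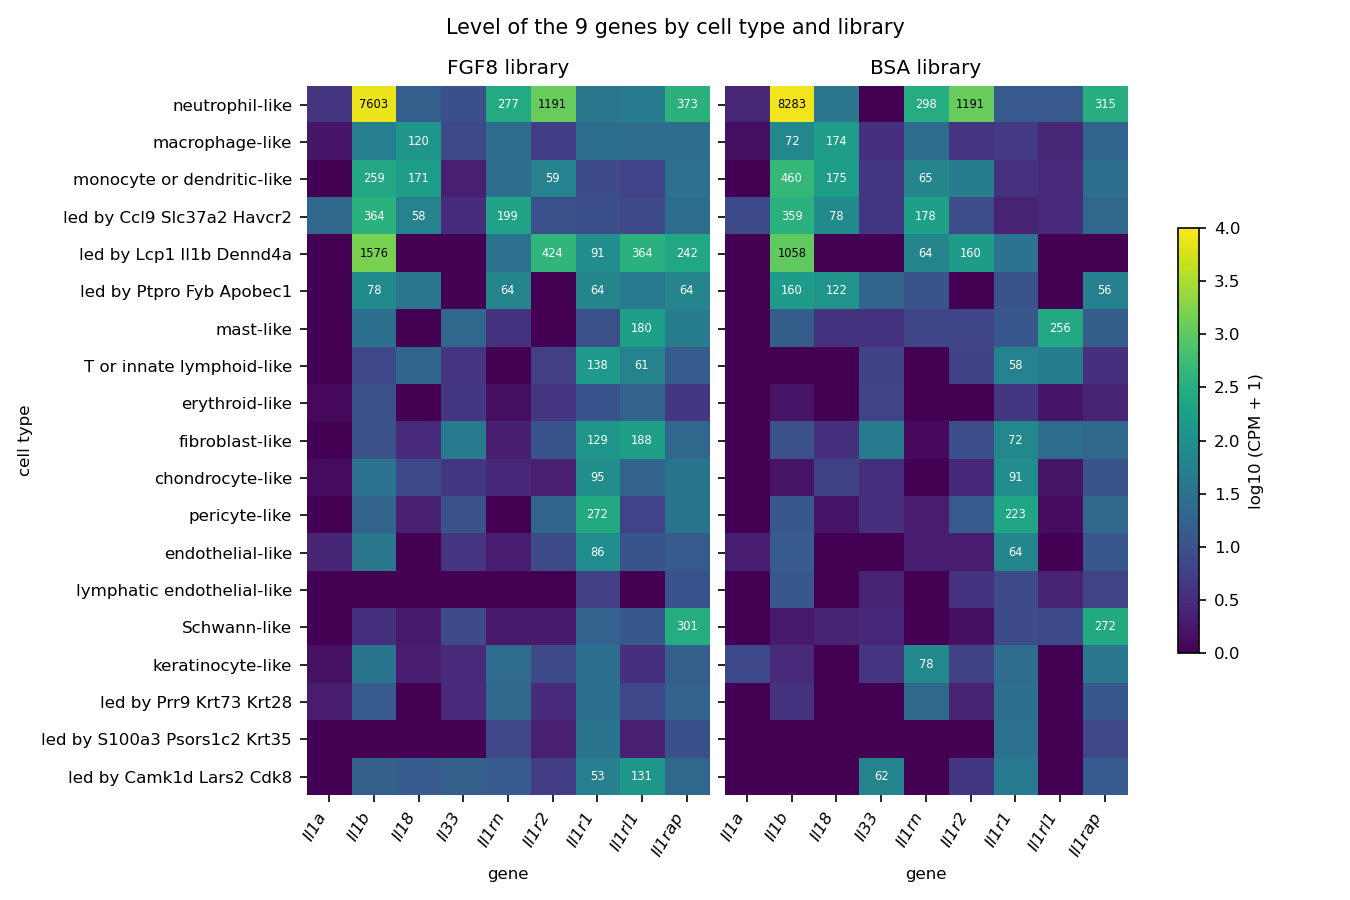
Level of the 9 genes in each cell type of the FGF8 library (left) and the BSA library (right), as log10 (CPM + 1) by colour, with CPM printed in cells at 50 or above. Il1b reached 7603 and 8283 CPM in neutrophil-like cells, and Il1rl1 was at 188 CPM in fibroblast-like cells of the FGF8 library against 25.6 CPM in the BSA library.

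Among the ligands, Il1b, the secreted fever and neutrophil-recruiting cytokine, had UMIs in 98.9% of neutrophil-like cells of the FGF8 library and 99.4% of those of the BSA library, at 7603 and 8283 CPM. These cells held 80.5% of all Il1b UMIs with the FGF8 bead and 73.1% with the BSA bead, shares that also depend on how many cells of each type were caught. The log2 ratio in neutrophil-like cells was -0.12 (-0.17 to -0.08), but its sign turned within each sex, to 0.20 in cells called female and 0.039 in those called male, so no direction can be read. In the cluster led by Ccl9, Slc37a2 and Havcr2, Il1b was at 364 and 359 CPM, but its log2 ratio was 0.33 (0.077 to 0.58) in cells called female and -1.34 (-1.57 to -1.11) in those called male. Monocyte or dendritic-like cells had Il1b at 259 and 460 CPM, a log2 ratio of -0.83 (-1.0 to -0.65). Macrophage-like cells had 49.8 CPM (211 UMIs) after FGF8 and 72.2 CPM (169 UMIs) after BSA, a log2 ratio of -0.54 (-0.83 to -0.23). That value came to 0.22 without integration of the libraries, to -2.67 in cells called female, and in those called male to 1.98 with a floor of 3 UMIs set in place of the 0 UMIs of the BSA library (lower limit of the interval 1.65), so it has no stable direction.

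Il1b was also found outside the white blood cells. Fibroblast-like cells had 8.91 and 8.72 CPM, in 5.0% and 2.68% of cells, and neutrophil markers stood at 33.9 and 15.7 CPM in the same cells (6 and 5 of 7 markers with a UMI). The ratio of Il1b there was -0.11 (-0.48 to 0.26) in cells called female and -0.84 (-1.13 to -0.54) in those called male. Chondrocyte-like cells had 104 UMIs with the FGF8 bead and 1 with the BSA bead, a log2 ratio of 5.74 (3.23 to 11.05). The 104 UMIs lay in 15 cells, 46 of them in 1 cell, and neutrophil markers in chondrocyte-like cells were at 163 and 3.06 CPM. Il1b per 1000 neutrophil-marker UMIs was 222 and 247 in neutrophil-like cells, 263 and 555 in fibroblast-like cells and 200 in chondrocyte-like cells of the FGF8 library. The chondrocyte-like cells of the BSA library had 5 neutrophil-marker UMIs, too few for such a value.

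Il1a, the membrane-bound and intracellular IL-1, was sparse, with 92 UMIs after FGF8 and 20 after BSA. The cluster led by Ccl9 held 77 and 10 of them, but 70 of the 77 were in 1 cell, and 7 and 4 cells had any. Keratinocyte-like cells had 1 and 6 UMIs. In fibroblast-like cells Il1a had 0 UMIs with the FGF8 bead, which allows up to 0.043 CPM, and 1 UMI with the BSA bead.

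Il18, which drives interferon-γ production, came from macrophage-like, monocyte or dendritic-like and Ccl9-led cells, which together with fibroblast-like cells held most of its UMIs in both libraries. Its level was 120 and 174 CPM in macrophage-like cells, a log2 ratio of -0.54 (-0.73 to -0.35), and 171 and 175 CPM in monocyte or dendritic-like cells, a ratio of -0.04 (-0.29 to 0.21). Within the sexes the Il18 ratio of macrophage-like cells was 0.012 (-0.30 to 0.32) in cells called female and -0.71 (-1.10 to -0.31) in those called male. Fibroblast-like cells had 2.07 and 2.56 CPM.

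Il33 was a fibroblast gene in this tissue: 95.1% of its UMIs after FGF8 and 95.9% after BSA were in fibroblast-like cells. Its level there was 44.8 CPM (3128 UMIs) with the FGF8 bead and 43.8 CPM (1559 UMIs) with the BSA bead, beside 31.9 and 29.9 CPM over all kept cells. The log2 ratio in fibroblast-like cells was 0.03 (-0.06 to 0.12), and 23.9% and 23.3% of them had a UMI. After cells with at least 2000 UMIs were thinned to 2000, with shallower cells left out, the shares of fibroblast-like cells were 7.85% and 7.86%. Erythroid-like cells, which should lack the gene, gave 2.12% and 3.61% unthinned, at median depths of 6983 and 18691 UMIs beside 18626 and 20103 in fibroblast-like cells. The direction was not the same in the sexes, with 0.20 (0.06 to 0.34) in cells called female and -0.47 (-0.62 to -0.31) in those called male.

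Il1rn, which blocks IL1R1, was highest in neutrophil-like cells, at 277 and 298 CPM, and in the Ccl9-led cluster, at 199 and 178 CPM, with log2 ratios of -0.11 (-0.36 to 0.15) and 0.16 (-0.05 to 0.37). Within the sexes the neutrophil-like ratio was -0.89 (-1.83 to -0.0088) in cells called female and 0.42 (-0.26 to 1.18) in those called male, and that of the Ccl9-led cluster 0.49 (0.17 to 0.81) in cells called female and 1.71 (0.98 to 2.56) in those called male. Monocyte or dendritic-like cells had 25.6 and 65.3 CPM, a ratio of -1.35 (-1.91 to -0.81). Keratinocyte-like cells had 24.2 and 77.7 CPM from 48 and 74 UMIs, a ratio of -1.68 (-2.24 to -1.14). The 124 keratinocyte-like cells of the BSA library were shallow, with a median of 1756 UMIs against 9441 in the FGF8 library. In fibroblast-like cells Il1rn was rare, with 79 UMIs in 39 cells of the FGF8 library and 10 UMIs in 5 cells of the BSA library, a ratio of 2.01 (1.05 to 3.12). In female-called fibroblast-like cells there were 8 and 9 Il1rn UMIs, too few for a ratio. Male-called fibroblast-like cells had 41 and 0, with a lower limit of the log2 ratio of 0.62.

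**Figure D2:**
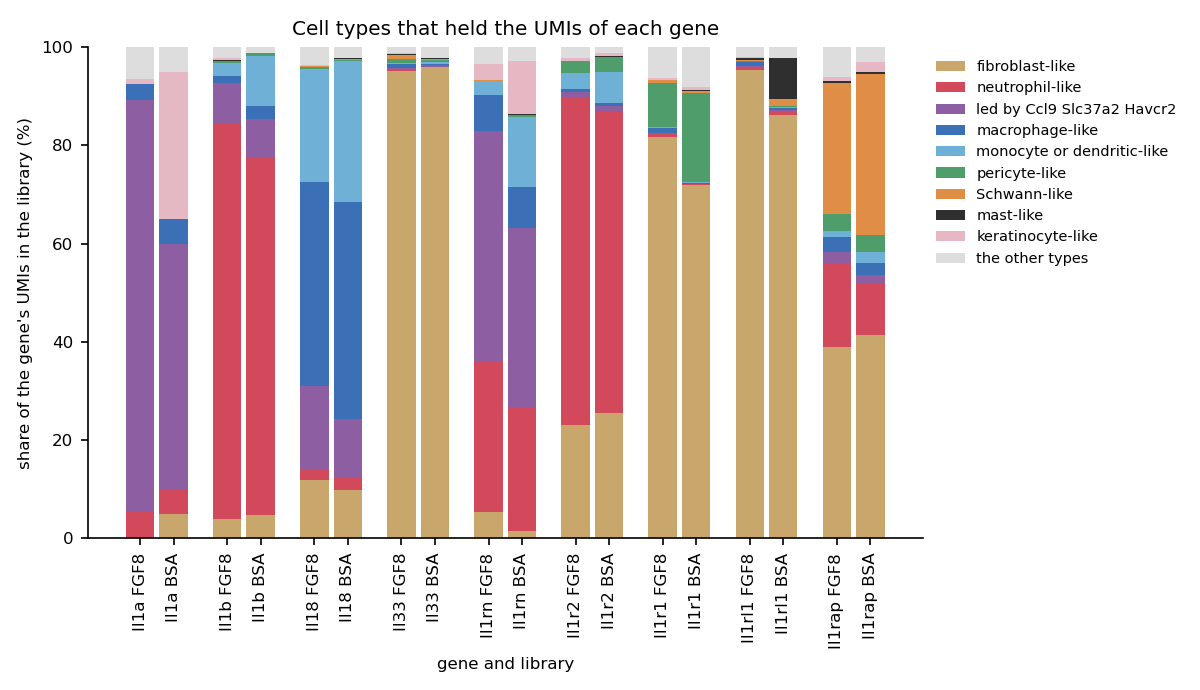
Share of each gene's UMIs (%) held by each cell type, 1 bar per gene and library. Neutrophil-like cells held 80.5% and 73.1% of Il1b, and fibroblast-like cells 95.1% and 95.9% of Il33.

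Of the receptors, the decoy Il1r2 was a neutrophil gene here. Neutrophil-like cells stood at 1191 CPM in both libraries (1976 and 700 UMIs), a log2 ratio of 0.00 (-0.12 to 0.13), and held 66.7% and 61.6% of its UMIs. Monocyte or dendritic-like cells had 59.2 and 47.3 CPM, and fibroblast-like cells 9.76 and 8.13 CPM, a ratio of 0.26 (0.06 to 0.47). The sign in fibroblast-like cells was not the same in the sexes, at 0.38 (0.051 to 0.70) in cells called female and -0.21 (-0.56 to 0.16) in those called male.

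Il1r1, the receptor that IL-1α and IL-1β share, had most of its UMIs in fibroblast-like cells, 9026 of 11042 after FGF8 and 2563 of 3565 after BSA. Fibroblast-like cells also held most UMIs of all genes, so much of that share follows from their size. Over all kept cells Il1r1 was at 107 and 65.6 CPM, not far below its fibroblast-like level. Il1r1 was not confined to mesenchymal types, with 162 and 63 UMIs in endothelial-like cells. Pericyte-like cells had 272 CPM after FGF8 and 223 CPM after BSA, a log2 ratio of 0.29 (0.14 to 0.43), and 84.2% and 83.9% of them had a UMI. The pericyte-like ratio was 0.14 (-0.11 to 0.38) in cells called female and 0.47 (0.20 to 0.75) in those called male. Fibroblast-like cells had 129 CPM (9026 UMIs) and 72.1 CPM (2563 UMIs), a ratio of 0.84 (0.78 to 0.91), with UMIs in 61.3% and 51.8% of cells and, after thinning, in 19.2% and 11.1%. The ratio was above 0 in both sexes, at 0.95 in cells called female and 0.60 in those called male. Erythroid-like cells had an Il1r1 UMI in 4.40% and 6.02% of cells. Chondrocyte-like cells stood at 94.9 and 90.5 CPM, a ratio of 0.07 (-0.22 to 0.36), which was made up of opposite values, 0.88 (0.47 to 1.29) in cells called female and -1.49 (-1.93 to -1.03) in those called male. T or innate lymphoid-like cells stood at 138 and 58.2 CPM (86 and 24 UMIs), a ratio of 1.24 (0.58 to 1.96).

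Il1rap, the signalling partner of both IL1R1 and IL1RL1, was highest in neutrophil-like cells, at 373 and 315 CPM with a log2 ratio of 0.25 (0.01 to 0.49) whose interval included 0 within each sex, and in Schwann-like cells, at 301 and 272 CPM with a ratio of 0.14 (-0.01 to 0.30). In Schwann-like cells called female the ratio was 0.43 (0.20 to 0.65), from 266 and 454 UMIs. The value in those called male is not given here. Fibroblast-like cells had 20.3 CPM (1420 UMIs) and 20.5 CPM (729 UMIs), a ratio of -0.01 (-0.14 to 0.12), with UMIs in 27.3% and 27.5% of cells. Within the sexes it was -0.28 (-0.50 to -0.065) in cells called female and 0.11 (-0.16 to 0.39) in those called male. Chondrocyte-like cells had 35.1 and 9.79 CPM, a ratio of 1.84 (1.08 to 2.70), from 112 and 16 UMIs.

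**Figure D3:**
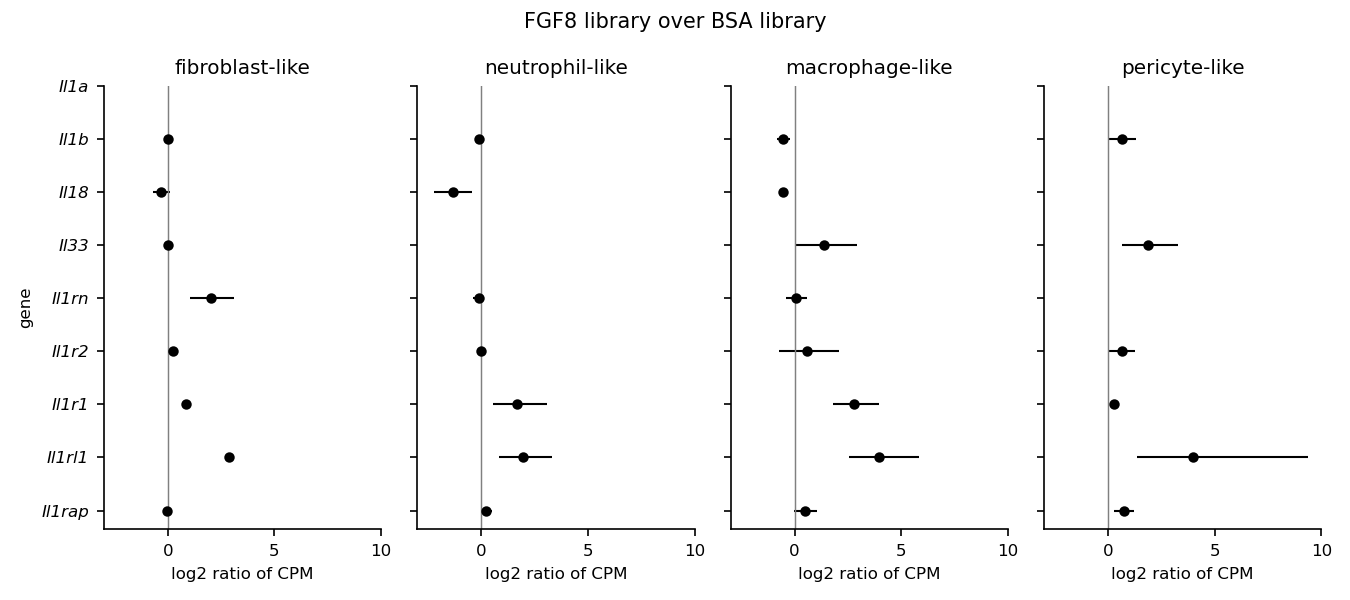
Log2 ratio of CPM (FGF8 library over BSA library) of the 9 genes in 4 cell types, with 95% counting intervals, for genes with 20 or more UMIs in the 2 libraries together and at least 1 in each. In fibroblast-like cells Il1rl1 stood at 2.88, Il1r1 at 0.84 and Il33 and Il1rap at 0.03 and -0.01.

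Il1rl1 had the widest gap of the 9 genes in fibroblast-like cells. It had 13152 UMIs (188 CPM) with the FGF8 bead and 909 UMIs (25.6 CPM) with the BSA bead, a log2 ratio of 2.88 (2.78 to 2.98), and ranked 61 from the top among 18227 genes with at least 20 UMIs. Past a log2 ratio of 1 were 5.04% of those genes upward and 4.06% below -1. Of the 9 members, 8 had enough UMIs, 2 of them (Il1rl1 and Il1rn) were above 1 and 0 below -1, 6 were above 0 against 43.3% of all genes, and their median was 0.15 beside -0.07 for all genes. Il1a was left out with 1 UMI.

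The share of fibroblast-like cells with an Il1rl1 UMI was 35.0% (1163 of 3320) after FGF8 and 8.28% (142 of 1714) after BSA, and after thinning 14.7% of 3172 and 2.40% of 1628 cells. Expression was uneven in both libraries: the most was 101 UMIs in 1 cell of the FGF8 library and 90 in 1 cell of the BSA library. After FGF8, 332 cells, the 10% with the most Il1rl1, held 76.8% of its UMIs. Erythroid-like cells gave 6.69% and 1.20% unthinned and 2.71% thinned with the FGF8 bead, and 0 of 77 thinned cells with the BSA bead, which allows up to 4.68%. The ratio was 2.98 (2.86 to 3.11) in cells called female and 3.58 (3.31 to 3.87) in those called male. It was 2.25 under a stricter cell filter, which kept cells with fewer than 6000 genes and left 3879 and 458 Il1rl1 UMIs, and 2.19 with the 6 fibroblast subclusters given equal weight in both libraries, an alternative chosen after seeing the data.

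**Figure D4:**
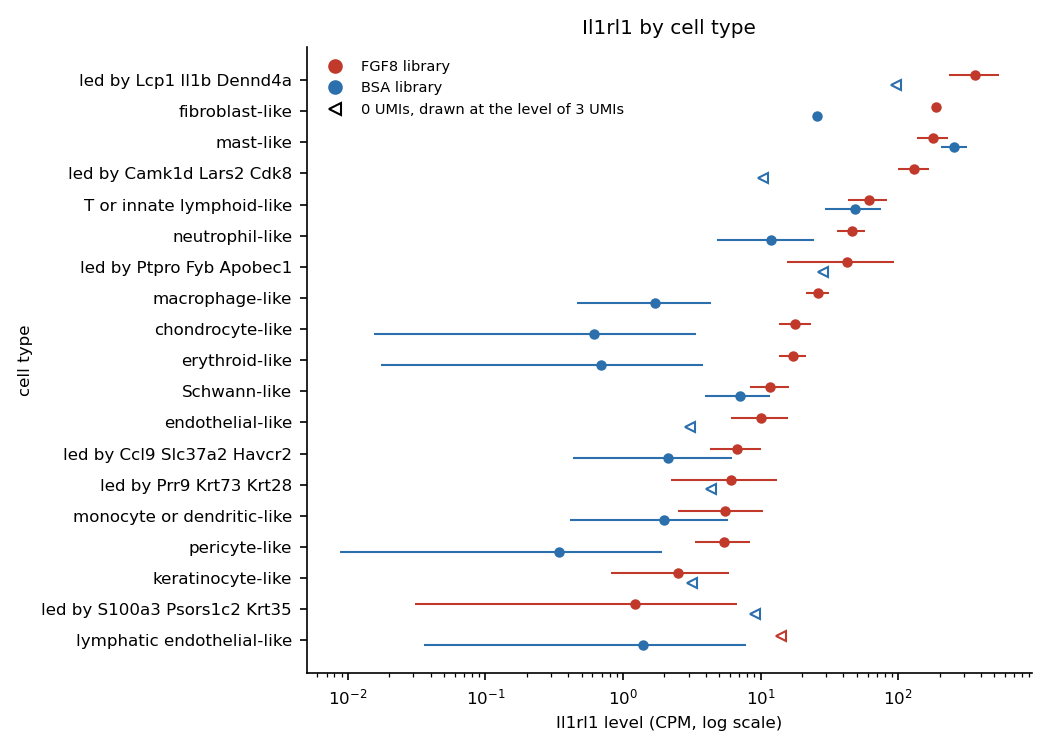
Il1rl1 level (CPM, log axis) by cell type with exact 95% counting intervals, red for the FGF8 library and blue for the BSA library, triangles for types with 0 UMIs drawn at the level of 3 UMIs. Fibroblast-like cells stood at 188 and 25.6 CPM and mast-like cells at 180 and 256 CPM.

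In the order of Il1rl1 levels among the named types, fibroblast-like (188 CPM) and mast-like cells (180 CPM, 138 to 230) of the FGF8 library could not be told apart by counting error, and T or innate lymphoid-like cells followed at 60.9 CPM (43.1 to 83.6). Among the named types of the BSA library mast-like cells led at 256 CPM (206 to 315), followed by T or innate lymphoid-like cells at 48.5 CPM (29.6 to 74.9) and fibroblast-like cells at 25.6 CPM (23.9 to 27.3). Of the unnamed clusters, that led by Lcp1, Il1b and Dennd4a stood at 364 CPM after FGF8, from 24 UMIs, against 0 UMIs after BSA. That is at least 3.78-fold higher when 0 is set to 3 UMIs. The cluster led by Camk1d, Lars2 and Cdk8 stood at 131 CPM from 61 UMIs against 0, at least 12.6-fold higher by the same floor. Both were shallow after FGF8, with medians of 762 and 676.5 UMIs. Summed fibroblast markers were at 6274 and 12469 CPM in the Lcp1-led cluster and 9097 and 15096 CPM in the Camk1d-led cluster.

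Mast-like cells, which had all 7 mast markers in both libraries, held 62 Il1rl1 UMIs in 64 cells of the FGF8 library and 89 in 41 cells of the BSA library. The log2 ratio was -0.51 (-1.0 to -0.03), with UMIs in 43.8% and 65.9% of cells and, after thinning, in 26.1% and 32.4%. Within the sexes the ratio was 0.32 (-0.62 to 1.18) in cells called female and -0.32 (-1.62 to 1.24) in those called male, so it has no stable direction. Summed mast markers were also lower in the FGF8 library, at 74560 against 108353 CPM, and the median depth was 3951 against 6092 UMIs. T or innate lymphoid-like cells had a ratio of 0.33 (-0.49 to 1.19), from 38 and 20 UMIs. As shares of all Il1rl1 UMIs, fibroblast-like cells held 95.4% with the FGF8 bead and 86.2% with the BSA bead, and mast-like cells 0.45% and 8.44%. These shares also depend on how many UMIs each type held. Over all kept cells Il1rl1 was at 134 and 19.4 CPM.

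Low Il1rl1 counts appeared in most other types of the FGF8 library, among them 111 UMIs in macrophage-like cells against 4 in the BSA library. Per 1000 fibroblast-marker UMIs of the same cells, Il1rl1 had 11.2 UMIs in fibroblast-like cells of the FGF8 library, 11.8 in erythroid-like, 11.1 in neutrophil-like, 11.3 in Ccl9-led and 8.82 in macrophage-like cells. Schwann-like cells had 2.82 and pericyte-like cells 1.03. The cluster led by Camk1d had 14.3, that led by Lcp1 58.0, mast-like cells 149 and T or innate lymphoid-like cells 63.0. In the BSA library fibroblast-like cells had 0.82, mast-like cells 128 and T or innate lymphoid-like cells 118, and from 7, 3 and 3 Il1rl1 UMIs neutrophil-like cells had 8.76, monocyte or dendritic-like cells 6.24 and the Ccl9-led cluster 5.56. Macrophage-like cells of that library had 0.60, erythroid-like 0.20, Schwann-like 1.53 and pericyte-like 0.067, from 4, 1, 15 and 1 Il1rl1 UMIs.

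Fibroblast-like cells were divided into 6 subclusters, without sex-linked genes or the 9 members. The genes that the study listed as higher or lower in fibroblasts after FGF8 were left out of that step as well. The subcluster led by Prg4 (lubricin) and Mmp3 (stromelysin), of 992 cells after FGF8 and 257 after BSA, held the most Il1rl1, at 331 CPM (11439 UMIs) and 69.0 CPM (560 UMIs), a log2 ratio of 2.26 (2.14 to 2.39), with UMIs in 73.9% and 24.5% of its cells. The subcluster led by Agtr2, Lpl and Dlk1 stood at 67.9 and 13.6 CPM, a ratio of 2.32 (1.98 to 2.67). That led by Fmod, with the tendon gene Scx among its leading genes, stood at 53.1 and 14.7 CPM, a ratio of 1.86 (1.56 to 2.16). By marker lists the Fmod-led subcluster scored highest for osteoblast (mean log2 fold 3.73), then for tenocyte (2.29), and it earned no name. In the subcluster led by Nrg1 and Tmem132c the ratio was 0.89 (0.58 to 1.20), from 20.7 and 11.1 CPM. The shallow subcluster led by Lars2 and Camk1d had 144 and 19.9 CPM, and that led by Corin and Alx4 had 6 and 0 UMIs. In each subcluster with UMIs in both libraries the FGF8 library was higher, including where the level was low.

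**Figure D5:**
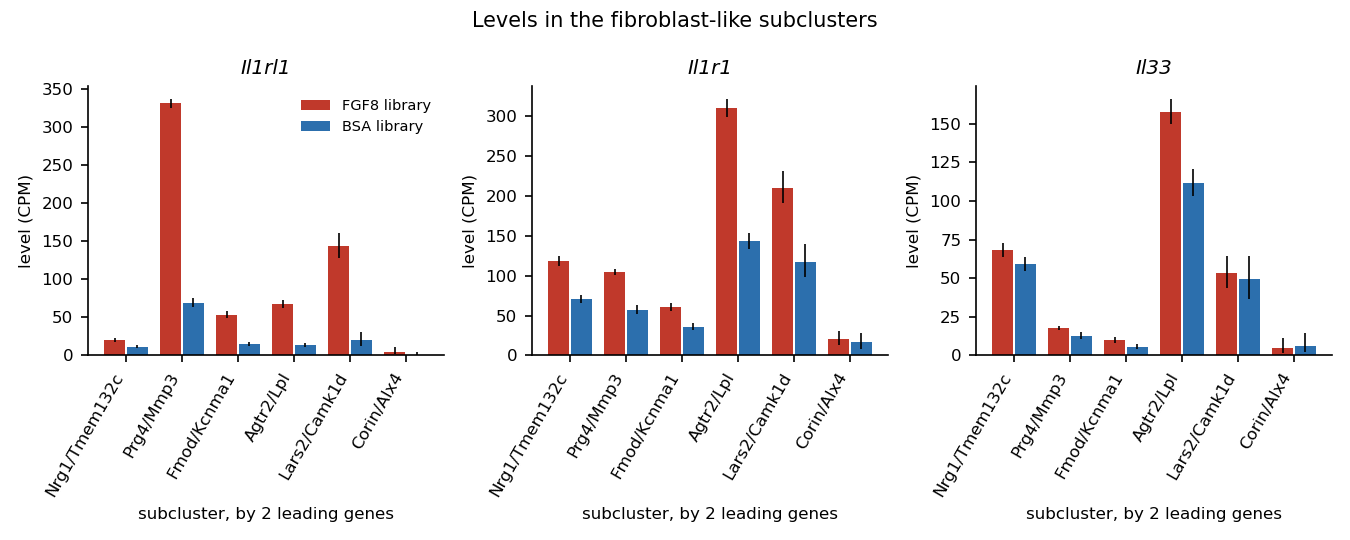
Il1rl1, Il1r1 and Il33 levels (CPM) in the 6 fibroblast-like subclusters, named by 2 leading genes, red for the FGF8 library and blue for the BSA library, with exact 95% counting intervals. Il1rl1 was highest in the Prg4 and Mmp3 subcluster, at 331 and 69.0 CPM, and Il1r1 and Il33 in the Agtr2 and Lpl subcluster.

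Ligand and receptor were placed differently among these subclusters. Il33 was highest in the Agtr2 and Lpl subcluster, at 158 and 112 CPM with a log2 ratio of 0.50 (0.36 to 0.63), and lower in the Prg4 and Mmp3 subcluster, at 17.5 and 12.7 CPM. Il1r1 was also highest in the Agtr2 and Lpl subcluster, at 310 and 143 CPM with a ratio of 1.11 (1.00 to 1.23), and in the Prg4 and Mmp3 subcluster it stood at 105 and 57.3 CPM, a ratio of 0.87 (0.73 to 1.01). Il1rap in the Prg4 and Mmp3 subcluster was at 13.2 and 7.14 CPM, a ratio of 0.89 (0.49 to 1.31).

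Within cells thinned to 2000 UMIs, Prg4 was found in 50% of fibroblast-like cells with Il1rl1 and 22.8% of those without it after FGF8, and in 15.4% of 39 cells and 6.23% after BSA. Il33 was found in 6.22% of cells with Il1rl1 and 8.13% of those without in the FGF8 library, and Il1r1 in 18.7% and 19.3%. Il1rap was found in 3.0% of cells with Il1rl1 and 5.54% of those without. Cells of 1 library are not replicates, so these shares describe the libraries only.

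Genes were also ranked by how closely their log2(CPM + 1) followed that of Il1rl1 over 38 points, the 19 types in each of the 2 libraries, among 16250 genes. The 5 closest were Tnfsf11 (the osteoclast factor RANKL) at Pearson's r = 0.76, Epha3 (an ephrin receptor) at 0.73, Cxcl5 (a neutrophil chemokine) at 0.73, Zfp990 at 0.72 and Ntng2 at 0.67. Points of 1 library share its depth and free RNA, so r is a description. In fibroblast-like cells Tnfsf11 was at 36.8 and 8.75 CPM, a log2 ratio of 2.07 (1.90 to 2.25), and Cxcl5 at 524 and 87.9 CPM, a ratio of 2.57 (2.52 to 2.63). Epha3 had a ratio of 0.24, Ntng2 of 0.06 and Zfp990, at 2.48 and 3.12 CPM, of -0.33 (-0.69 to 0.023).

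Of the genes beside Il1rl1 on chromosome 1, Il18rap, the accessory chain of the IL-18 receptor, had 301 UMIs after FGF8 and 27 after BSA in fibroblast-like cells, a log2 ratio of 2.50 (1.93 to 3.13). Of these UMIs 237 and 12 were in the Prg4 and Mmp3 subcluster. Summed T or innate lymphoid markers in fibroblast-like cells were also higher after FGF8, at 13.8 and 5.46 CPM (964 and 194 UMIs). Whether RNA of such cells added to the Il18rap counts was not tested. Il18r1, the ligand-binding chain, had 59 and 17 UMIs, a ratio of 0.82 (0.02 to 1.69), and Il1rl2, the IL-36 receptor, 18.5 and 22.1 CPM, a ratio of -0.26 (-0.39 to -0.13).

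Of 41 other genes of the pathway, 35 had enough UMIs in fibroblast-like cells, 17 above 0 and 18 below (all genes: 43.3% and 56.7%), with a median log2 ratio of -0.01 beside -0.07 for all genes. None of the 5 other ligands (Il36a, Il36b, Il36g, Il36rn and Il1f10) had 20 UMIs. Of 7 other receptors and inhibitors, 3 were above 0 and Il18rap was past 1. Of 19 adaptors, kinases and NF-κB genes, 10 were above 0 and 3 past 1: Nfkbia, the NF-κB inhibitor, at 657 and 281 CPM with a ratio of 1.23 (1.20 to 1.26), Nfkb1, an NF-κB subunit, at 323 and 139 CPM with 1.21 (1.17 to 1.26), and Nfkbiz, a nuclear regulator of NF-κB targets, at 91.4 and 45.4 CPM with 1.01 (0.93 to 1.09). Of 10 genes for maturation of the ligands, 9 had enough UMIs, 4 were above 0 and 0 past 1, with a median of -0.29. Across the list 4 of the 35 genes were above 1 and 0 below -1, beside 5.04% and 4.06% of all genes.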

How the data were processed

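Deposited counts were used: per the labels the authors made UMI counts per gene and cell with Cell Ranger 9.0.0, and the submitters' notes list GRCm39, mm10 and Seurat. Gene positions here are from GRCm39. The study's filters were applied (over 200 and under 7500 genes, mitochondrial share under 15%), then SCTransform, CCA integration, 30 principal components and clustering at resolution 0.05 in Seurat 5.3.0 under R 4.3.3, with clusters of at least 150 cells per library re-clustered at 0.2. The 9 genes were left out of the variable features. For the re-clustering of fibroblast-like cells, X- and Y-linked genes and the study's listed fibroblast genes were left out too. Clusters were named from their best-scoring marker list where at least 3 of its markers were detected, unless another list had more markers among the 10 leading genes or the cells had few UMIs and no marker among those genes. Doublets were not removed, since Scrublet (scanpy 1.11.5) called 0 cells in either library and so had not worked. UMIs were summed per library and type and divided by the type's total (CPM), with exact Poisson, binomial and conditional 95% intervals (scipy 1.17.1). The interval of the ratio was tried on simulated sums drawn from a Poisson distribution. That check could not show how the interval behaves for genes whose UMIs lie in few cells. Shares were also taken after thinning each cell to 2000 UMIs. A ratio needed 20 UMIs over both libraries. Named genes were the 9 members, pathway genes with at least 100 UMIs and a log2 ratio above 1 or below -1, the genes next to Il1rl1, and the 5 genes most like Il1rl1 over types. The members, lists and tests were chosen with earlier results of these data known.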

Additional observations from a re-analysis of the deposited data

Results flagged for a closer look

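Ratios of 4 genes had intervals on opposite sides of 0 in a pair of cell types, and the difference was not tested, because each condition is 1 library. Il1rl1 had a log2 ratio of 2.88 in fibroblast-like cells and -0.51 in mast-like cells, where both values within the sexes, 0.32 (female) and -0.32 (male), had intervals that included 0. Il1b stood at 5.74 in chondrocyte-like cells, from 104 UMIs against 1, and at -0.83 in monocyte or dendritic-like cells. Il1rn was at 2.01 in fibroblast-like cells, from 79 and 10 UMIs, and at -1.68 in keratinocyte-like cells. Il1rap was at 1.84 in chondrocyte-like cells and at -1.36 in keratinocyte-like cells, from 30 and 37 UMIs.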

How the results depend on the processing

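No paired analysis was possible because each condition has 1 library. Of 6 results, the count of pathway genes above 0 in fibroblast-like cells, 17, came to between 15 and 22 under its 11 alternatives. The log2 ratio of Il1rl1 in fibroblast-like cells (2.88) was above 0 under each alternative run. It moved to 2.25 with the stricter filter, 3.01 with types called per cell, 2.55 after thinning, 2.98 in cells called female and 3.58 in those called male, and 2.19 with subclusters weighted equally. Il33 (0.03) moved to 0.24 with types called per cell, 0.20 in cells called female and -0.47 in those called male, and 0.38 with subclusters weighted equally. Il1r1 (0.84) moved to 0.75 with the stricter filter, 0.97 with types called per cell, 1.02 after thinning, 0.95 in cells called female and 0.60 in those called male, and 0.91 both centred on the median gene and with subclusters weighted equally. Il1b in macrophage-like cells (-0.54) moved to -0.15 with the stricter filter, -2.67 in female-called cells and -1.37 with the highest Scrublet scores removed, and turned to 0.22 without integration, 0.14 with types called per cell, 0.024 after thinning, 1.98 in male-called cells (against a floor of 3 UMIs, lower limit 1.65) and 0.10 with the Ccl9-led cluster added. Il1b in neutrophil-like cells (-0.12) moved to -0.022 without integration, -0.33 with types called per cell, -0.025 after thinning and -0.31 centred on the median gene, and turned to 0.20 in female-called cells, 0.039 in male-called cells and 0.12 with the highest Scrublet scores removed. The cause was not tested. The alternatives on subclusters and on the Ccl9-led cluster were chosen after seeing the data. Genes with few UMIs, such as Il1a, are limited by depth.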
